A study of Homo sapiens with 12 samples.

Results

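B cell identity rests on a small set of transcription factors, and 10 of them, out of 28278 genes counted, are described here in a lymphoma line with and without 2 mutations of chromatin enzymes. The members were taken by symbol and are BCL6, BACH2, MEF2B, MEF2C, IRF8, SPIB, POU2AF1, POU2F2, EBF1 and PAX5. No rule on their values was used, but they were chosen with earlier results of these data known. All 10 had a row in the count table, and 8 had enough counts to be tested. For 7 members (BCL6, BACH2, MEF2C, POU2AF1, POU2F2, EBF1 and PAX5) GENCODE 29 has an overlapping gene on the opposite strand, and without the strand of counting the reads of both cannot be told apart. SPIB overlaps the protein-coding gene AC020909.1 on the same strand, which has no row in the count table. How reads shared by these 2 genes were counted was not given in the sources used here. MEF2B was at 0 in every library and MEF2C had counts in a single line, so both are given as counts only.

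RNA came from OCI-Ly7, an established line of human diffuse large B-cell lymphoma, and was counted by MARS-seq, which reads barcoded cDNA at the 3′ ends of transcripts. The EZH2 mutant carries EZH2 Y646N, a gain-of-function change in the histone H3 lysine 27 methyltransferase of Polycomb repressive complex 2. The KMT2D mutant is kmt2d-/-, so it lacks an enzyme that methylates lysine 4 of histone H3 at enhancers, and the double mutant carries both changes. Wild type is the parental OCI-Ly7. The mutants were made by CRISPR, all 4 lines were untreated, and whether each line is 1 clone was not given in the sources used here. The EZH2 mutant had 2 libraries and each of the other lines had 3.

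In the germinal centre, where B cells mutate their antibody genes, BCL6 acts as a repressor that holds back the DNA damage response, cell cycle arrest and plasma cell differentiation, while BACH2 delays the plasma cell state. PAX5 and EBF1 commit cells to the B lineage and keep its surface receptor genes on. POU2F2 binds the octamer motif of immunoglobulin promoters with its coactivator POU2AF1, SPIB and IRF8 join on composite Ets and interferon response elements, and MEF2B and MEF2C are MADS-box factors, MEF2B being a known activator of BCL6 in germinal centre B cells.

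Library totals ran from 1118710 to 3107871 counts, so that 3 counts came to between 0.965 and 2.68 CPM, the counts scaled to a common library size. EZH2 mutant replicate 1 was the shallowest library, and its correlation with the other EZH2 mutant library over log2 CPM, 0.960, was the lowest within any line, the other pairs within a line reaching 0.969 to 0.983. All 7 B cell markers were tested, with summed levels of 20200 to 27200 CPM in the EZH2 mutant, 13500 to 17200 in the KMT2D mutant, 18800 to 20100 in the double mutant and 13200 to 18600 in wild type. Of the 16 T and NK cell markers 14 were in the table, 3 could be tested and CD3D, CD2, CD8A, CD8B and GZMB were at 0, the sums being 217 to 223 CPM in the EZH2 mutant, 243 to 297 in the KMT2D mutant, 189 to 214 in the double mutant and 214 to 279 in wild type. The 12 myeloid markers summed to 18.9 to 19.5, 11.6 to 17.2, 6.80 to 7.90 and 20.4 to 32.6 CPM in the same order of lines, with CSF1R, MPO, FCGR3A, S100A8 and S100A9 at 0, and the 11 fibroblast and epithelial markers to at most 6.04 CPM in any library. The part of these marker levels in the results was not tested. EZH2 and KMT2D themselves passed against wild type in none of the mutants, and 3′ counts check neither genotype label.

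BCL6 fell in both lines with mutant EZH2, SPIB rose in the EZH2 mutant and fell in the KMT2D mutant, POU2F2 fell in the KMT2D mutant and POU2AF1 fell in the double mutant. PAX5, IRF8 and EBF1 passed the test in none of the 6 pairs of lines. In the EZH2 mutant against wild type, 1 tested member of 8 rose and 1 fell, beside 17.1% and 15.1% of all tested genes (32.3% in all). The KMT2D mutant had 0 members higher and 2 lower, beside 3.18% and 4.48% of all tested genes (7.66% in all). The double mutant had 0 higher and 2 lower, beside 12.1% and 11.6% (23.7% in all). The double mutant against the EZH2 mutant gave 1 member lower and 0 higher, beside 1.58% and 0.715% of all tested genes (2.29% in all). The double mutant against the KMT2D mutant gave 2 members higher and 3 lower, beside 21.2% and 20.8% (41.9% in all), and the EZH2 mutant against the KMT2D mutant 2 higher and 2 lower, beside 23.4% and 22.4% (45.8% in all). The share of members called, 25% in each comparison with wild type, was thus close to the background in the lines with mutant EZH2. A gene was called where edgeR's quasi-likelihood test gave an adjusted p under 0.05. The median log2 fold change of the 8 members was -0.10, -0.10 and -0.23 in the EZH2, KMT2D and double mutants against wild type, where that of all tested genes was -0.04, 0.00 and -0.01. These 3 comparisons share the wild-type libraries. With the lines ordered by level for each member, the neighbouring lines whose difference passed were the double mutant below the KMT2D mutant for BCL6, the KMT2D mutant below wild type for SPIB and POU2F2, and the double mutant below the EZH2 mutant for POU2AF1, with none for BACH2, IRF8, PAX5 and EBF1.

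**Figure D1:**
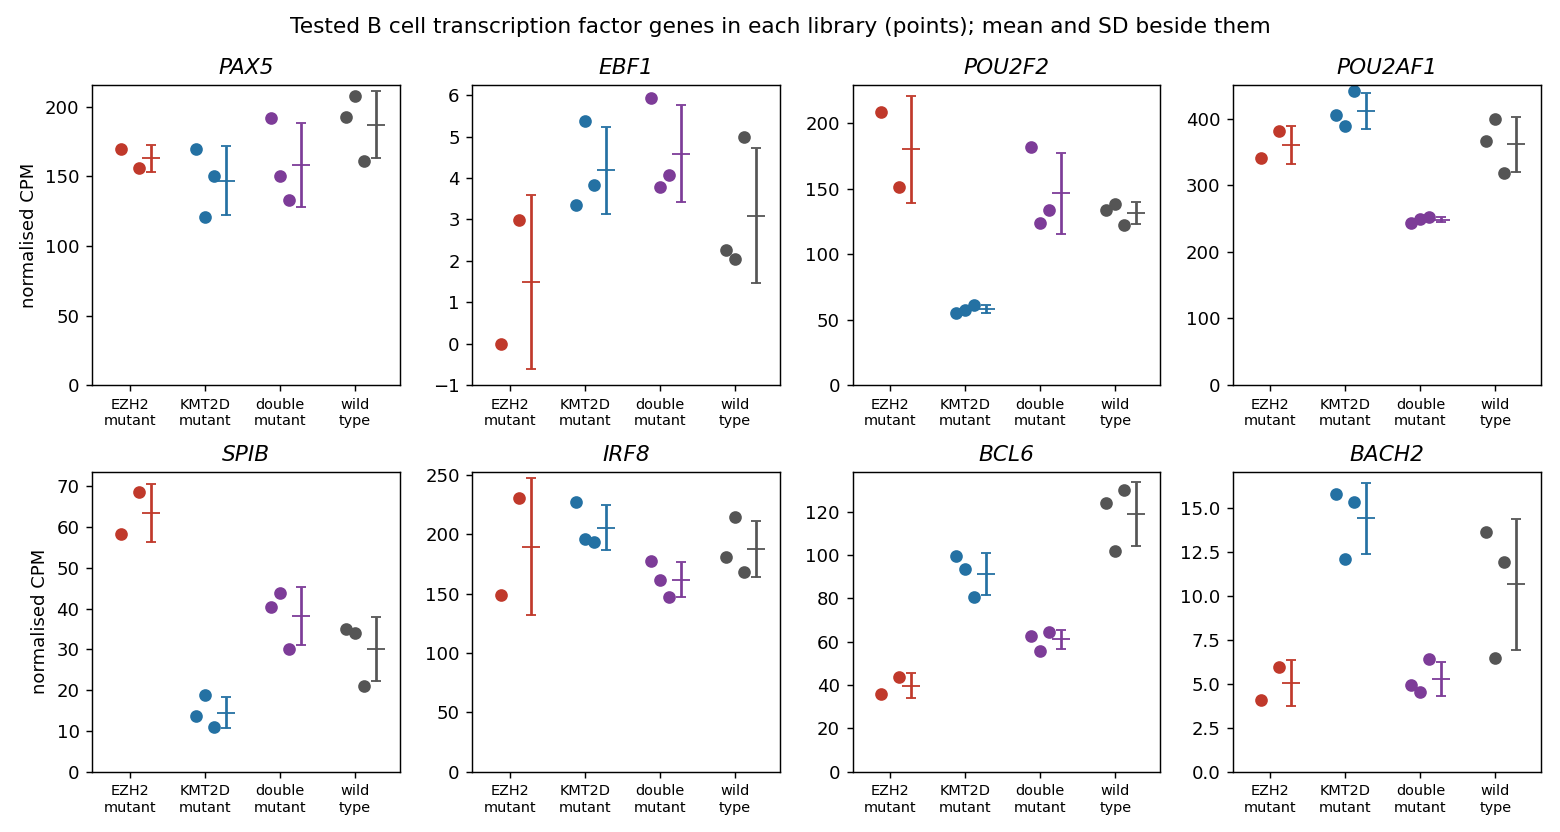
Normalised CPM of the 8 tested members in each library (points, left to right EZH2 mutant, KMT2D mutant, double mutant and wild type), with the mean and SD of each line beside the points. BCL6 is lowest in the EZH2 mutant (35.8 and 43.7 CPM), POU2F2 lies apart from the other lines in the KMT2D mutant (55.4 to 61.3 CPM), and POU2AF1 is lowest in the double mutant (244 to 252 CPM).

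BCL6 lies on chromosome 3, minus strand, from 187721377 to 187745727 (ENSG00000113916.17, GRCh38 in GENCODE 29). It had 35.8 and 43.7 normalised CPM in the EZH2 mutant libraries, the KMT2D mutant having 99.6, 93.3 and 80.8, the double mutant 62.7, 55.9 and 64.5 and wild type 124, 102 and 130. Both lines with mutant EZH2 lay below every library of the 2 lines without it, and the KMT2D mutant libraries lay just below those of wild type. BCL6 fell to 39.8 ± 5.54 CPM in the EZH2 mutant (SD, n = 2), against 119 ± 14.4 CPM in wild type (SD, n = 3), a log2 fold change of -1.55 (SE 0.19, adjusted p = 9.4e-06 by edgeR). In bulk RNA, fewer cells that express a gene and less RNA per cell cannot be told apart. In the double mutant the change was -0.95 (SE 0.15, adjusted p = 1.7e-04 by edgeR). The KMT2D mutant stood at -0.38 (SE 0.14), which did not pass (adjusted p = 0.131 by edgeR). Against the KMT2D mutant BCL6 was lower in the double mutant by edgeR, at log2 -0.58 (SE 0.15, adjusted p = 0.00549), and in the EZH2 mutant, at -1.17 (SE 0.19, adjusted p = 6.5e-05).

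In order from low to high, the EZH2 mutant and the double mutant were neighbours whose difference did not pass (double mutant 1.51 times the EZH2 mutant, adjusted p = 0.118 by edgeR), that between the double mutant and the KMT2D mutant passed, and that between the KMT2D mutant and wild type did not. Without EZH2 mutant replicate 1, the fall in the EZH2 mutant was -1.42 and still called. Of the 50 tested genes nearest to BCL6 on chromosome 3, 25 on each side, 1 lay below it in the EZH2 mutant against wild type and their median was -0.01. The 3 genes whose log2 CPM followed BCL6 most closely over the 11 libraries, among 6519 genes with a mean of at least 10 CPM, were CEBPB, a bZIP factor (Pearson r = 0.974), ACO1, the cytosolic aconitase (r = 0.959), and PAPSS1, which makes the sulfate donor of the cell (r = 0.954). CEBPB averaged 72.3 CPM in the EZH2 mutant, 130 in the KMT2D mutant, 98.4 in the double mutant and 143 in wild type.

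BCL6 protein is known to bind its own gene and repress it. One of 2 RefSeq promoter entries of BCL6 (GRCh38.p14, 250 bases before to 50 after the start) is shown because it holds the BCL6 site TTCCTAGAA, on the strand opposite to the gene and 37 bases past the start. The site stands in capitals, as it reads on the strand of the gene, in the region chr3:187745419-187745718 on the minus strand.
BCL6: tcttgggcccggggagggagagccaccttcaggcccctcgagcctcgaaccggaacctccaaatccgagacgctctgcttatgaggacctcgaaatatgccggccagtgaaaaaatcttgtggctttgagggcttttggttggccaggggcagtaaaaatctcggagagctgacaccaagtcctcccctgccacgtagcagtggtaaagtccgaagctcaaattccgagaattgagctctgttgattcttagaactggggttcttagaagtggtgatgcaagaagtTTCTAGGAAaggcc
The same letters, searched on both strands, are in 131 of 35116 promoter entries, or 0.373%. None of the other members' entries holds them. A match of letters does not show that the site is bound in these cells.

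BACH2, on chromosome 6 from 89926529 to 90296908, had few counts, 4 to 52 per library. It had 4.10 and 5.96 normalised CPM in the EZH2 mutant libraries, the KMT2D mutant having 15.8, 12.1 and 15.3, the double mutant 4.93, 4.53 and 6.39 and wild type 13.6, 6.46 and 11.9. All 5 libraries with mutant EZH2 were below all 6 without it, wild type replicate 2 being nearest. Against the KMT2D mutant, BACH2 was lower in the double mutant by edgeR, at log2 -1.45 (SE 0.34, adjusted p = 0.00213), and in the EZH2 mutant, at -1.46 (SE 0.41, adjusted p = 0.00671), the second call being lost without EZH2 mutant replicate 1 (adjusted p = 0.0521 by edgeR). Against wild type the EZH2 mutant stood at -0.96 (SE 0.42), the double mutant at -0.95 (SE 0.36), and neither passed (adjusted p = 0.0870 and 0.0579 by edgeR). Both were called without wild type replicate 2, at -1.30 in the EZH2 mutant and -1.26 in the double mutant, and with upper-quartile scaling. The KMT2D mutant was at 0.50 (SE 0.29) and did not pass (adjusted p = 0.345 by edgeR).

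POU2F2, also called OCT2, lies on chromosome 19, minus strand, from 42086110 to 42196585 (ENSG00000028277.21). It had 209 and 151 normalised CPM in the EZH2 mutant libraries, the KMT2D mutant having 55.4, 57.1 and 61.3, the double mutant 182, 124 and 134 and wild type 134, 138 and 122. The KMT2D mutant libraries lay below all 8 others, the EZH2 mutant lay above wild type, and the double mutant overlapped wild type. POU2F2 fell to 57.9 ± 3.01 CPM in the KMT2D mutant, against 131 ± 8.19 CPM in wild type (SD, n = 3 each), a log2 fold change of -1.18 (SE 0.16, adjusted p = 1.5e-04 by edgeR). It was higher than in the KMT2D mutant both in the double mutant by edgeR, at log2 1.35 (SE 0.16, adjusted p = 4.0e-06), and in the EZH2 mutant, at 1.62 (SE 0.18, adjusted p = 1.3e-06). The EZH2 mutant stood at 0.44 (SE 0.17) against wild type and missed the threshold (adjusted p = 0.0588 by edgeR), passing without EZH2 mutant replicate 2, at 0.67. The double mutant stood at 0.17 (SE 0.16, adjusted p = 0.469 by edgeR).

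SPIB, an Ets factor related to PU.1, lies on the plus strand of the same chromosome from 50418938 to 50431313 (ENSG00000269404.6). It had 58.4 and 68.5 normalised CPM in the EZH2 mutant libraries, the KMT2D mutant having 13.7, 18.8 and 11.1, the double mutant 40.5, 43.8 and 30.2 and wild type 35.1, 34.0 and 21.1. The EZH2 mutant was above every other library, the KMT2D mutant was below every other library, and the double mutant and wild type overlapped. SPIB rose in the EZH2 mutant by log2 1.1 against wild type (SE 0.24, adjusted p = 0.00187 by edgeR), to 63.4 ± 7.16 CPM (SD, n = 2), against 30.1 ± 7.79 CPM in wild type (SD, n = 3). It fell in the KMT2D mutant, at -1.08 (SE 0.24, adjusted p = 0.00736 by edgeR), a call lost without KMT2D mutant replicate 3, at -0.90 (adjusted p = 0.0757 by edgeR). The difference between the EZH2 mutant and the KMT2D mutant, log2 2.18 (SE 0.26, adjusted p = 2.6e-06 by edgeR), was kept in all 19 alternatives. The double mutant was at 0.35 (SE 0.22) against wild type and did not pass (adjusted p = 0.279 by edgeR), and at 1.43 (SE 0.25) against the KMT2D mutant, where it did (adjusted p = 1.4e-04 by edgeR).

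POU2F2 and SPIB are both on the long arm of chromosome 19, and much of that arm was lower in the KMT2D mutant. Of 373 tested genes of the arm, 5 were higher and 189 lower in the KMT2D mutant against wild type, with a median log2 fold change of -0.72. In the double mutant against wild type 55 were higher and 33 lower, with a median of 0.13. Of the 50 tested genes nearest to POU2F2, 34 were lower in the KMT2D mutant and their median was -0.86, which put POU2F2 0.32 below it. Of the 50 nearest to SPIB, 30 were lower and their median was -0.82, with SPIB 0.26 below it. Thus 5 neighbours of POU2F2 and 9 of SPIB lay lower still, and a fall of these genes cannot be told apart from a fall of the region. Against the KMT2D mutant, the 50 neighbours of POU2F2 had a median of 1.00 in the double mutant (39 higher) and 1.08 in the EZH2 mutant (36 higher). Those of SPIB had 0.98 (37 higher) and 1.03 (31 higher) in the same order. Of the neighbours, 38 and 43 lay below POU2F2 there, and 38 and 48 below SPIB. In the EZH2 mutant against wild type the median of SPIB's neighbours was 0.19, and 47 of the 50 lay below SPIB. The genes most like POU2F2 over the 11 libraries, PPP5C, a serine/threonine phosphatase (r = 0.968), SNRPD2, a core spliceosome protein (r = 0.962), and FTL, the ferritin light chain (r = 0.962), are all on chromosome 19. Those most like SPIB were HNRNPM, also on chromosome 19 (r = 0.967), FEN1 on chromosome 11 (r = 0.963) and WDR82 on chromosome 3 (r = 0.961).

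**Figure D2:**
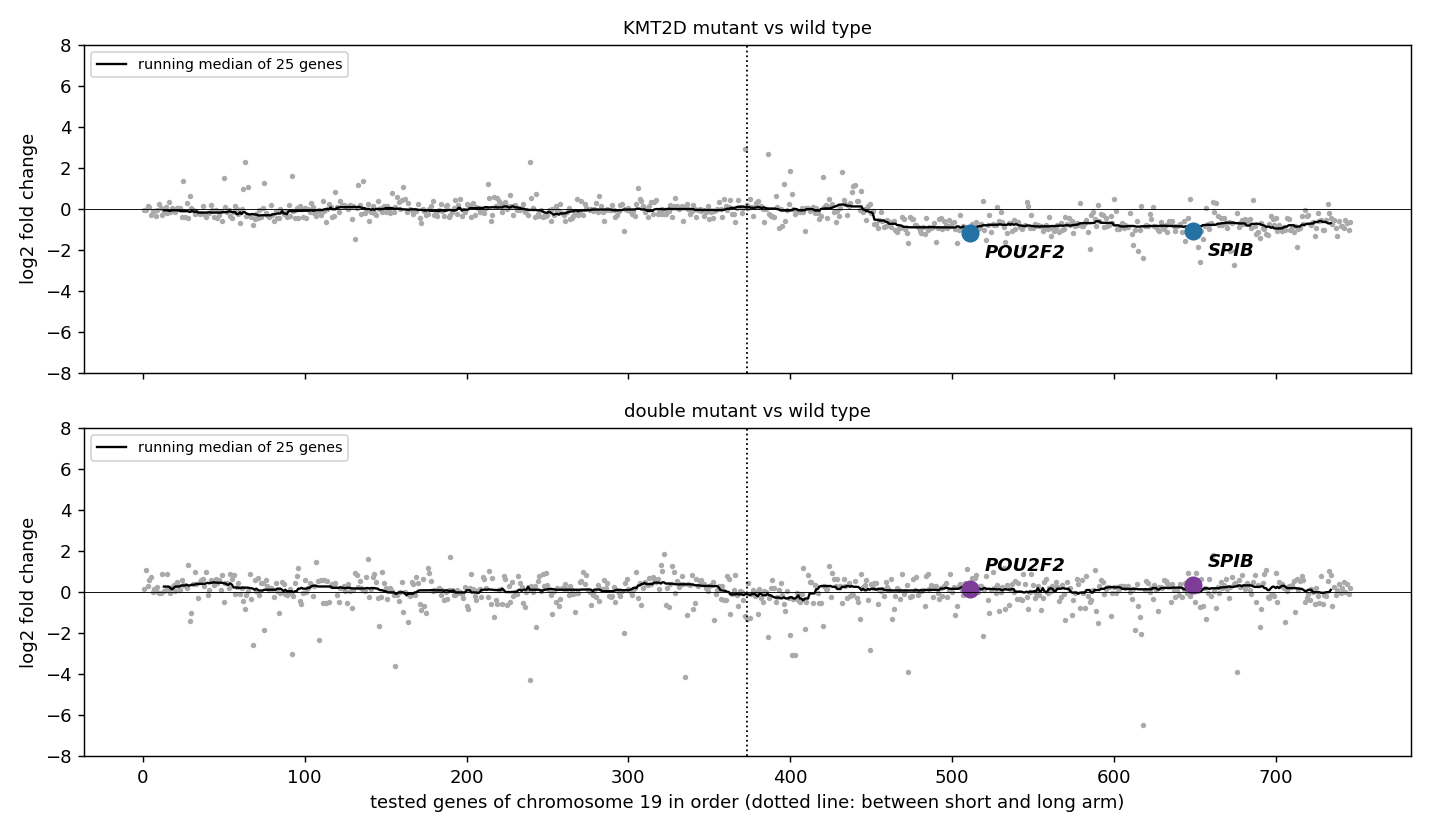
Log2 fold change of each tested gene of chromosome 19 in gene order (grey points) in the KMT2D mutant (upper panel) and the double mutant (lower panel), each against wild type, with the running median of 25 genes as a line, POU2F2 and SPIB as large points and the boundary of the arms dotted. In the KMT2D mutant the median drops inside the long arm and both members lie near the lowered line, at -1.18 and -1.08, while in the double mutant they lie at 0.17 and 0.35.

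POU2AF1, the coactivator of POU2F2, lies on chromosome 11, minus strand, from 111352252 to 111455630 (ENSG00000110777.11). It had 341 and 381 normalised CPM in the EZH2 mutant libraries, the KMT2D mutant having 405, 389 and 441, the double mutant 244, 249 and 252 and wild type 367, 400 and 318. The double mutant libraries were the 3 lowest, and both single mutants overlapped wild type. POU2AF1 fell in the double mutant against wild type, at log2 -0.54 (SE 0.12, adjusted p = 0.00282 by edgeR), to 248 ± 4.03 CPM, against 362 ± 41.1 CPM in wild type (SD, n = 3 each). The change was 0.00 (SE 0.13) in the EZH2 mutant and 0.19 (SE 0.12) in the KMT2D mutant, neither called (adjusted p = 1 and 0.394 by edgeR). The double mutant was also lower than the KMT2D mutant, at -0.73 (SE 0.12, adjusted p = 9.1e-05 by edgeR), and than the EZH2 mutant, at -0.54 (SE 0.13, adjusted p = 0.0351 by edgeR), the last call being lost in 11 of 20 alternatives. Those were upper-quartile scaling (adjusted p = 0.0563), the strict filter, the fit of only the 2 lines, the replicate block, and the fits without either EZH2 mutant library, any double mutant library, or KMT2D mutant replicate 1 or 3, the largest edgeR adjusted p being 0.167 without EZH2 mutant replicate 2. The genes whose log2 CPM followed it most closely were RIPOR2, a regulator of RhoA (r = 0.965), C16orf74 (r = 0.946) and PLAAT4 (r = 0.946). RIPOR2 averaged 56.8 CPM in the EZH2 mutant, 74.9 in the KMT2D mutant, 8.62 in the double mutant and 39.8 in wild type.

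IRF8, the interferon regulatory factor that pairs with Ets proteins, lies on chromosome 16 from 85898803 to 85922609. It had 149 and 230 normalised CPM in the EZH2 mutant libraries, the KMT2D mutant having 227, 196 and 193, the double mutant 177, 161 and 147 and wild type 181, 214 and 168. The EZH2 mutant libraries span nearly the whole range of the other lines. The largest difference was between the double mutant and the KMT2D mutant, at log2 -0.34 (SE 0.15), and did not pass (adjusted p = 0.0772 by edgeR), though 6 of 20 alternatives called it. PAX5, on chromosome 9 from 36833275 to 37034185, had 170 and 156 CPM in the EZH2 mutant libraries, the KMT2D mutant having 170, 121 and 150, the double mutant 192, 150 and 133 and wild type 193, 208 and 161. All 3 mutant lines overlapped wild type, with log2 fold changes of -0.20 (SE 0.18), -0.34 (SE 0.16) and -0.24 (SE 0.16) in the EZH2, KMT2D and double mutants (adjusted p = 0.397, 0.212 and 0.284 by edgeR). EBF1, on chromosome 5 from 158695916 to 159099761, had 0 and 6 counts in the EZH2 mutant libraries, the KMT2D mutant having 11, 8 and 10, the double mutant 12, 5 and 7 and wild type 4, 6 and 13. With so few counts the ratio of summed counts per library total, 0.554 in the EZH2 mutant against wild type, had a 95% interval from 0.184 to 1.40, which covers counting error only. Without EZH2 mutant replicate 2, which leaves the library with 0 counts, EBF1 passed in the EZH2 mutant against the KMT2D mutant (adjusted p = 0.0469 by edgeR). Missing the threshold does not show that the levels of these 3 genes were alike.

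**Figure D3:**
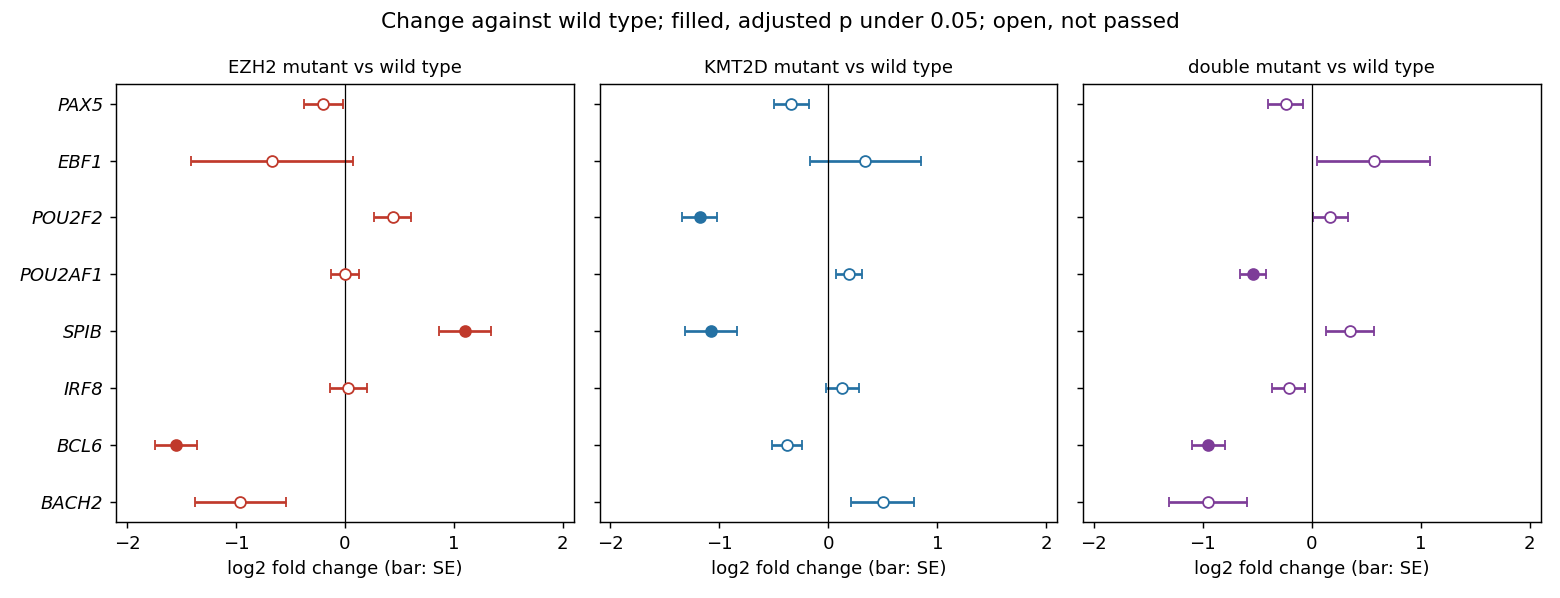
Log2 fold change against wild type (horizontal axis, bars 1 SE) of the 8 tested members in the EZH2 mutant, the KMT2D mutant and the double mutant, filled where the adjusted p was under 0.05. BCL6 is filled in the EZH2 mutant (-1.55) and the double mutant (-0.95), SPIB on opposite sides of 0 in the EZH2 mutant (1.1) and in cells without KMT2D alone (-1.08), and PAX5, IRF8 and EBF1 in none.

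MEF2B and MEF2C were nearly absent from the counts. MEF2B had 0 counts in each of the 11 libraries, which allows up to 0.908 CPM in the EZH2 mutant, 0.431 in the KMT2D mutant, 0.567 in the double mutant and 0.428 in wild type, 3 counts in the summed libraries of a line. The readthrough gene BORCS8-MEF2B, which overlaps it on the same strand, was also at 0, and how reads shared by both were counted was not given in the sources used here. MEF2C had 2, 2 and 2 counts in the KMT2D mutant and 0 in the other 8 libraries, at least 2.01-fold higher in the KMT2D mutant than in wild type with 3 counts over the group in place of 0. Counting error of its 6 counts alone lowers that bound to 1.19. The antisense gene MEF2C-AS1 had 9 counts in all, in the KMT2D mutant too, and without the strand of counting the pair cannot be told apart. Their relatives MEF2D and MEF2A were measured. MEF2D averaged 75.1 CPM in the EZH2 mutant, 47.0 in the KMT2D mutant, 57.8 in the double mutant and 62.9 in wild type. MEF2A averaged 15.1, 30, 16.8 and 21.7 CPM in the same order of lines. Neither passed against wild type. MEF2D was higher in the EZH2 mutant than in the KMT2D mutant, at log2 0.68 (SE 0.17, adjusted p = 0.00368 by edgeR). Against the KMT2D mutant MEF2A was lower in the double mutant, at -0.85 (SE 0.29, adjusted p = 0.0237 by edgeR). It was also lower in the EZH2 mutant, at -0.98 (SE 0.35, adjusted p = 0.0267 by edgeR). These 2 MEF2A calls were lost in 4 and 5 of 20 alternatives.

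The octamer ATGCAAAT, bound by POU2F2, was found in RefSeq promoter entries of these 2 members alone, and 40 bases around each are shown with the octamer in capitals, as read on the strand of the gene. The MEF2B window is chr19:19170322-19170361 and the MEF2C window chr5:88824381-88824420, both on the minus strand of GRCh38.p14. In MEF2C, which has 7 entries, the octamer stands in 1 of them and on the opposite strand.
MEF2B: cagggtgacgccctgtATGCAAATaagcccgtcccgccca
MEF2C: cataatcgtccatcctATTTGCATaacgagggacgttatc
Over all entries, 623 of 35116, or 1.77%, hold the octamer on either strand. POU2AF1 had no entry. The 17 entries of the other 9 members held none of the letters GAGGAAGT, an Ets site that 2.59% of all entries hold, which says only that these letters are not in these windows.

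The change between lines with and without mutant EZH2 was then compared between lines without KMT2D and lines with it. The interaction is the log2 fold change of the double mutant against the KMT2D mutant minus that of the EZH2 mutant against wild type. Of the 8 tested members 2 were higher and 1 lower by this test, beside 1.5% and 1.52% of all tested genes (3.02% in all). BCL6 fell less where KMT2D was lost, -0.58 against -1.55, an interaction of 0.97 (SE 0.24, adjusted p = 0.0305 by edgeR). POU2F2 had 1.35 with KMT2D lost against 0.44 with it, an interaction of 0.90 (SE 0.24, adjusted p = 0.0458 by edgeR). POU2AF1 had -0.73 with KMT2D lost against 0.00 with it, an interaction of -0.73 (SE 0.18, adjusted p = 0.0285 by edgeR). SPIB, BACH2, IRF8, PAX5 and EBF1 did not pass, SPIB standing at 0.33 (SE 0.34, adjusted p = 0.712 by edgeR) and BACH2 at -0.49 (SE 0.56, adjusted p = 0.746 by edgeR).

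The interaction kept its direction in every alternative run for these 3 genes, but each call was lost in part of them. For BCL6 it was lost in 8 of 19, with the replicate block (adjusted p = 0.0565) and without wild type replicate 1 or 3, KMT2D mutant replicate 3, either EZH2 mutant library or double mutant replicate 1 or 3, the largest edgeR adjusted p being 0.0970 without EZH2 mutant replicate 1. For POU2AF1 it was lost in 7 of 19, without wild type replicate 3, KMT2D mutant replicate 1 or 3, EZH2 mutant replicate 2 or any double mutant library, the largest edgeR adjusted p being 0.125 without EZH2 mutant replicate 2. For POU2F2 it was lost in 9 of 18, with limma-voom (adjusted p = 0.0505) and without any library of wild type or the KMT2D mutant, EZH2 mutant replicate 2 or double mutant replicate 1, the largest edgeR adjusted p being 0.214 without EZH2 mutant replicate 2. The neighbours of POU2F2 had a median interaction of 0.79, and 31 of the 50 lay below it, so the value of POU2F2 is near that of its region.

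**Figure D4:**
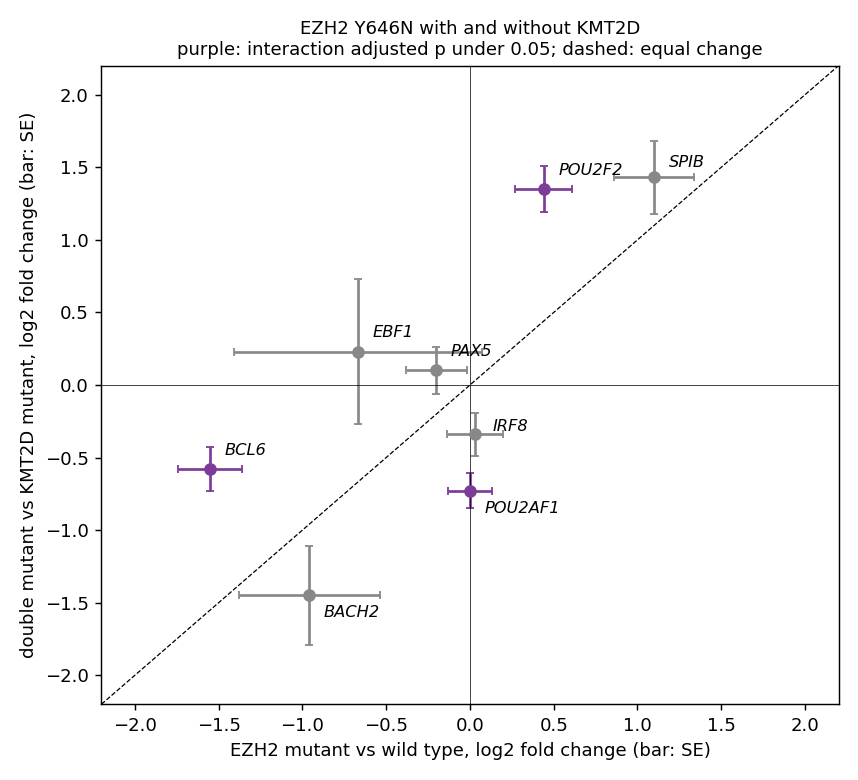
Log2 fold change of each tested member in the double mutant against the KMT2D mutant (vertical axis) beside that in the EZH2 mutant against wild type (horizontal axis), bars 1 SE, with a dashed line where both are equal and members that passed the interaction test in purple. BCL6 and POU2F2 lie above the line, at interactions of 0.97 and 0.90, and POU2AF1 below it, at -0.73.

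Genes known to be repressed by BCL6 gave calls in both directions in the lines where BCL6 was low, and in the EZH2 mutant the lower calls depended on single libraries. Of the 11 tested genes of 20 listed, 3 rose and 4 fell in the EZH2 mutant, 0 and 0 in the KMT2D mutant, and 3 rose and 2 fell in the double mutant, each against wild type. In the EZH2 mutant, beside 17.1% higher and 15.1% lower among all tested genes, 3 to 4 were higher and 0 to 4 lower over the alternatives, with 0 lower without EZH2 mutant replicate 1. In the KMT2D mutant, beside 3.18% and 4.48%, 0 were higher and 0 to 1 lower. In the double mutant, beside 12.1% and 11.6%, 2 to 3 were higher and 1 to 2 lower. The median log2 fold change was -0.15, 0.01 and 0.02 in that order. CDKN1A, the cell cycle inhibitor p21, rose to 52.4 ± 5.98 CPM in the EZH2 mutant (SD, n = 2) and 44.3 ± 4.79 in the double mutant, against 13.6 ± 0.810 in wild type (SD, n = 3 each), at log2 1.96 (SE 0.22, adjusted p = 4.0e-06 by edgeR) and 1.70 (SE 0.20, adjusted p = 7.0e-06 by edgeR). PTPN6, the phosphatase SHP-1, rose by log2 1.25 (SE 0.14) in the EZH2 mutant, the double mutant standing at 0.68 (SE 0.13). IRF4, a plasma cell factor, moved the other way, to -0.67 in the EZH2 mutant and -0.47 in the double mutant. Its calls were lost without EZH2 mutant replicate 1 (-0.45) and without wild type replicate 2 (-0.40). CDKN1B, p27, was lower at -0.60 in the EZH2 mutant and -0.54 in the double mutant by edgeR, calls lost in 6 and 4 of 20 alternatives with largest adjusted p of 0.158 and 0.103. PRDM1, the plasma cell factor known as BLIMP1, had too few counts for a test.

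BCL6 works through corepressors, and 11 of 12 listed components were tested. Against wild type 3 rose and 1 fell in the EZH2 mutant, beside 17.1% higher and 15.1% lower among all tested genes. In the double mutant 3 rose and 1 fell, beside 12.1% and 11.6%. In the KMT2D mutant none passed, beside 7.66% of all tested genes. GPS2, a subunit of the NCoR and SMRT complexes, rose by log2 0.89 (SE 0.14) in the EZH2 mutant, the double mutant reaching 0.78 (SE 0.13). CBX8, a Polycomb reader, rose by 2.13 (SE 0.37) in the EZH2 mutant, with 1.73 (SE 0.34) in the double mutant. HDAC3, the histone deacetylase of the same complexes, rose by 0.54 in the EZH2 mutant and 0.40 in the double mutant. The second call was lost in 10 alternatives, among them the fits without wild type replicate 2 or 3, KMT2D mutant replicate 2 or double mutant replicate 1 or 2. BCOR, which binds BCL6 directly, fell to -0.93 in the EZH2 mutant and -0.87 in the double mutant. The BCOR call in the EZH2 mutant was lost without EZH2 mutant replicate 1 (-0.54) or wild type replicate 2 or 3 and with the replicate block (-0.85, adjusted p = 0.0687 by edgeR). That in the double mutant was lost without double mutant replicate 1 or 2 (-0.66 without replicate 2) or wild type replicate 2 or 3.

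Genes that PAX5 and EBF1 activate also gave calls in both directions, and neither factor passed the test. Of 17 listed, 15 were tested. In the EZH2 mutant 3 rose and 2 fell, beside 17.1% higher and 15.1% lower among all tested genes. In the KMT2D mutant 2 rose and 2 fell, beside 3.18% and 4.48%. In the double mutant 1 rose and 4 fell, beside 12.1% and 11.6%. The medians were -0.06, 0.22 and -0.13 in that order. LEF1, a partner of beta-catenin, fell to 78.6 ± 24.3 CPM in the EZH2 mutant (SD, n = 2) and 117 ± 5.39 in the double mutant, against 208 ± 16.2 in wild type (SD, n = 3 each). VPREB1, part of the surrogate light chain, rose by log2 2.80 (SE 0.28) in the KMT2D mutant. With 3 counts in the double mutant, against 41 in wild type, it was 10.3-fold lower (95% interval 3.29 to 52.1). CD79A, the B cell receptor subunit, fell in the KMT2D mutant, at log2 -0.94 (SE 0.16, adjusted p = 8.6e-04 by edgeR). CD79A is itself on the long arm of chromosome 19. CD72, a coreceptor, rose by 1.08 in the EZH2 mutant and 0.84 in the double mutant.

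**Figure D5:**
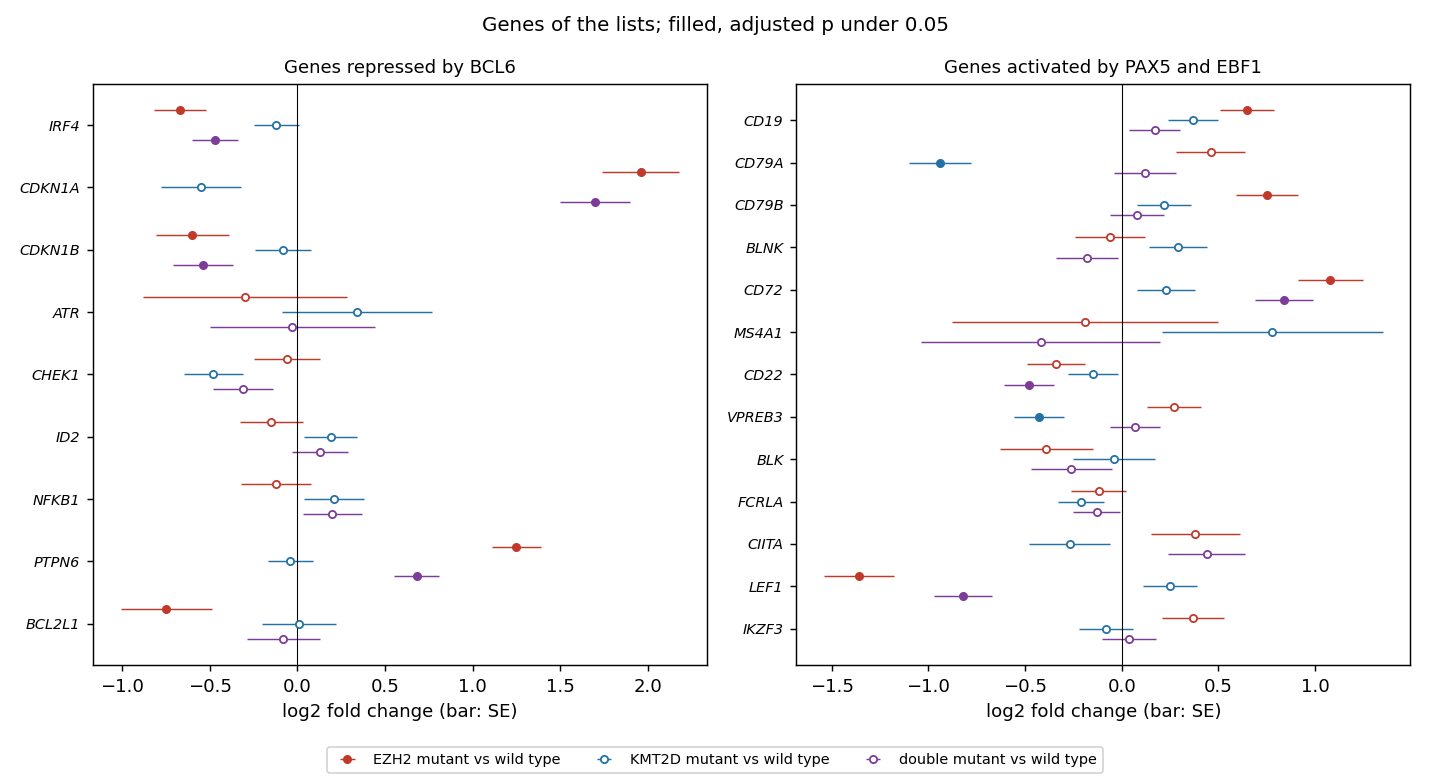
Log2 fold change against wild type (horizontal axis, bars 1 SE) of tested genes known to be repressed by BCL6 (left) and activated by PAX5 and EBF1 (right), in the EZH2, KMT2D and double mutants, filled where the adjusted p was under 0.05. CDKN1A rises in the EZH2 mutant (1.96) and the double mutant (1.70) while IRF4 falls in both (-0.67 and -0.47). VPREB1, which had few counts in some lines, is not drawn.

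Among 32 other B-lineage transcription factors 26 were tested. Against wild type, 3 rose and 7 fell in the EZH2 mutant, beside 17.1% higher and 15.1% lower among all tested genes. In the KMT2D mutant 1 rose and 0 fell, beside 3.18% and 4.48%. In the double mutant 0 rose and 4 fell, beside 12.1% and 11.6%. Over the alternatives the EZH2 mutant had 0 to 3 higher and 4 to 10 lower, the KMT2D mutant 0 to 3 higher and 0 to 1 lower, and the double mutant 0 to 1 higher and 3 to 7 lower. The 3 higher in the EZH2 mutant were SPI1 (0.51), ID3 (0.48) and KLF13 (0.62, named after its value was seen), and none of them passed with upper-quartile scaling, the strict filter or without wild type replicate 3. TCF7, a factor related to LEF1, had 2 counts in the EZH2 mutant and 0 in the double mutant, against 49 in wild type. It was 11.5-fold lower in the EZH2 mutant (95% interval 3.03 to 98) and at least 12.3-fold lower in the double mutant. RUNX3 fell in the EZH2 mutant at log2 -0.79 (SE 0.19). FOXO1 fell in the double mutant at -0.44 (SE 0.14), a call lost without wild type replicate 2 (-0.38) or double mutant replicate 1 or 3. ETS1 rose in the KMT2D mutant at 0.72 (SE 0.19), a call lost without KMT2D mutant replicate 1 or 3 or any wild-type library, the largest edgeR adjusted p being 0.146 without KMT2D mutant replicate 3.

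Of the 11 family relatives of the members, 6 were tested. In the EZH2 mutant 1 rose and 2 fell against wild type, beside 17.1% higher and 15.1% lower among all tested genes. In the double mutant 0 rose and 2 fell, beside 12.1% and 11.6%. SPI1, the gene of PU.1, rose by 0.51 in the EZH2 mutant. This call against wild type was lost without EZH2 mutant replicate 1 (0.41) or wild type replicate 2 or 3, with upper-quartile scaling, with the strict filter and in the fit of only the 2 lines. POU2F1, the ubiquitous octamer factor, fell there, at log2 -0.62 (SE 0.20), a call lost without either EZH2 mutant library or wild type replicate 2 (largest adjusted p = 0.122 by edgeR, without EZH2 mutant replicate 1). EBF4 had 0 counts in the double mutant, against 27 in wild type, at least 6.79-fold lower. IRF4, also a relative, fell in both lines, at -0.67 in the EZH2 mutant and -0.47 in the double mutant, with calls lost as given above. In the KMT2D mutant no relative passed, beside 7.66% of all tested genes.

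Of 15 plasma cell genes, the state that BCL6 and BACH2 hold back, 11 were tested. In the KMT2D mutant none passed against wild type, beside 7.66% of all tested genes. In the EZH2 mutant 2 rose and 3 fell, beside 17.1% higher and 15.1% lower among all tested genes. In the double mutant 2 rose and 2 fell, beside 12.1% and 11.6%. The count higher was 2 in both lines under every alternative run, while the count lower ran from 0 (without EZH2 mutant replicate 1) to 4 in the EZH2 mutant and from 1 (without wild type replicate 2) to 6 (upper-quartile scaling) in the double mutant. The genes that rose were FKBP11 and SSR4, both of the secretory pathway, FKBP11 by log2 1.09 in the EZH2 mutant (0.72 in the double mutant) and SSR4 by 0.95 (0.89). IRF4 fell in both lines, and DERL3, of the endoplasmic reticulum, fell in the double mutant at -0.76 (SE 0.16). TNFRSF17, the receptor BCMA, fell in the EZH2 mutant at -2.34 (SE 0.64), a call lost without either of its libraries (-1.92 without replicate 1).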

How the data were processed

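Counts per gene in 11 libraries were deposited by the authors, in a table that calls them corrected without saying for what. Per the submitters' processing notes STAR 2.7.0f, cutadapt 1.15, Trim Galore 0.6.0, FastQC and DESeq2 were used, in roles not stated there. The genome build, annotation, counting program and strand were not given in the sources used here. Columns marked DM were read as the double mutant, and EZH2 mutant replicate 3 was not analysed here.

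Counts were tested with edgeR 4.0.16 in R 4.3.3. filterByExpr with a minimum count of 10 left 8813 of 28278 genes (13188 were at 0 throughout). TMM factors and 1 term per line over all libraries were used, with Benjamini-Hochberg adjustment per comparison and a threshold of 0.05. The edgeR test was tested on simulated data with the same spread for every gene and changes planted only in genes with more counts. That run cannot show how the test performs on genes with few counts. Gene positions came from GENCODE 29 on GRCh38 by symbol, and genes of chromosome 19 starting past position 27000000 were taken as its long arm. Normalised CPM used TMM library sizes, log2 CPM for likeness a prior count of 2, and ratios of few counts library totals with exact 95% intervals. Alternatives were upper-quartile and RLE factors, no filter, a strict filter (at least 10 counts in every library), DESeq2 1.42.0, limma-voom 3.58.1, only the groups compared, a replicate block, leaving out each library, and, chosen after seeing the data, leaving out the long arm of chromosome 19. Members and gene lists were chosen with earlier results of these data known. Named were all members, for each member called against wild type the 3 genes most alike, and up to 4 genes per list and comparison with the smallest adjusted p. PRDM1 was named after its values were seen. Single values of 3 listed genes are not reported here, though the counts and medians of their lists include them.

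Whether the replicates came from separate cultures is not labelled, and p-values then reflect no more than the spread among these libraries, which may be technical. Intervals and floors cover counting error only. Replicate pairs differed by more than sampling noise (chi-square per gene 3.36 to 8.89). Deviations of same-numbered libraries were not shared in one direction (correlations -0.289 to 0.376), and no batch is labelled. With so few libraries per line, deviations from the line mean depend on each other, so they cannot decide whether a batch was shared.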

Additional observations from a re-analysis of the deposited data

Results flagged for a closer look

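The change between lines with and without mutant EZH2 differed by KMT2D status for 3 members by edgeR's interaction test, which is why they are named here. Each change compares 2 lines, and other differences between the lines were not tested. For BCL6 the changes were log2 -0.58 without KMT2D and -1.55 with it, a difference of 0.97. For POU2AF1 they were -0.73 and 0.00, a difference of -0.73. For POU2F2 they were 1.35 and 0.44, a difference of 0.90, where the tested neighbours of POU2F2 on chromosome 19 had a median of 0.79. What lies behind these differences was not tested.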

How the results depend on the processing

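No call was turned in direction. Over 105 results of members and listed genes and 2035 values under alternatives, 132 calls were lost and 15 gained, and 51 values that passed in neither setting changed sign. Calls of members numbered 2, 2, 2, 1, 5, 4 and 3 in the EZH2 mutant, KMT2D mutant and double mutant against wild type, the double mutant against the EZH2 mutant and against the KMT2D mutant, the EZH2 mutant against the KMT2D mutant, and the interaction. Leaving out single libraries gave 2 to 3, 1 to 2, 2 to 3, 0 to 1, 5 to 6, 3 to 5 and 0 to 2 in the same order. Called genes of the lists numbered 29, 5, 20, 4, 38, 41 and 7, and ranged over those fits from 18 to 31, 3 to 7, 16 to 23, 0 to 4, 29 to 40, 32 to 42 and 2 to 8. Over all genes the counts were 2846, 675, 2087, 202, 3695, 4040 and 266, with ranges of 1779 to 2874, 339 to 802, 1381 to 2286, 99 to 242, 2708 to 3885, 2872 to 4076 and 147 to 309. A lone EZH2 mutant library was then assumed to vary like the other groups.

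Without the long arm of chromosome 19, which holds POU2F2 and SPIB, members called fell by construction to 1 in the EZH2 mutant and 0 in the KMT2D mutant against wild type, 3 in the double mutant and 2 in the EZH2 mutant against the KMT2D mutant, and all genes called to 399 in the KMT2D mutant (216 higher and 183 lower, where all genes gave 280 and 395) and 152 for the interaction (48 and 104, where all genes gave 132 and 134). In the double mutant against the EZH2 mutant, members called were 0 with upper-quartile scaling, the strict filter, only the groups compared and the replicate block, and 2 with no filter. Listed genes there were 0 with only the groups compared and 1 with the block, and all genes 381 with no filter, 131 with the strict filter and 92 with only the groups compared. With no filter, listed genes were 11 in the KMT2D mutant (8 with only the groups compared) and 12 for the interaction, which then called 482 genes. The strict filter tests fewer genes and called 2422 in the double mutant and 2660 in the EZH2 mutant against the KMT2D mutant. Other causes were not tested.

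Upper-quartile scaling moved the median gene by -0.164, -0.114, -0.147 and -0.197 on the log2 scale in the EZH2 mutant and double mutant against wild type and the double mutant and EZH2 mutant against the KMT2D mutant. Calls higher and lower were then 1015 and 1762, 728 and 1318, 1342 and 2300, and 1486 and 2602, where TMM gave 1511 and 1335, 1068 and 1019, 1864 and 1831, and 2066 and 1974. In the double mutant against the EZH2 mutant it gave 88 and 116, the strict filter 60 and 71, no filter 154 and 227, and the fits without EZH2 mutant replicate 2 and without double mutant replicate 1 gave 70 and 96 and 126 and 116, where TMM gave 63 and 139.

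Whether replicate numbers pair the libraries is not labelled. With the replicate block, members called were 2, 2, 2, 0, 5, 4 and 2 and all genes 2445, 629, 2002, 151, 3630, 3589 and 230, in the order above. Calls it ended include POU2AF1, PTPN6 and CD79B in the double mutant against the EZH2 mutant, BCL6, ETV6 and POU2F1 in the interaction, BCOR, CBFB, KLF13 and CDKN1B in the EZH2 mutant and VPREB3 in the KMT2D mutant. EBF1 and MEF2C had few counts, and MEF2B had none.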

Other observations

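Over the 11 libraries, log2 CPM of POU2F2 and SPIB ran together (Pearson r = 0.872), and BACH2 ran against both (r = -0.839 with SPIB and -0.798 with POU2F2). BCL6 and BACH2 had r = 0.773, and POU2AF1 and IRF8 r = 0.689. POU2F2 and SPIB both lie on the long arm of chromosome 19. The median of that arm was -0.72 in the KMT2D mutant against wild type and 0.82 in the double mutant against the KMT2D mutant. Their correlations, also those with BACH2, cannot be told apart from the course of the arm. These are descriptions over libraries of 4 lines, which share the line, its depth and the scaling, and the libraries of a line are not independent points. The interaction of the EZH2 and KMT2D mutations was also called for ID3, an inhibitor of E proteins, at log2 -0.98 (SE 0.19, adjusted p = 0.00448 by edgeR). ID3 averaged 2530 CPM in the EZH2 mutant, 2280 in the KMT2D mutant, 1610 in the double mutant and 1810 in wild type.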
